A study of Mus musculus with 29 samples.

Results

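The mitochondrial ribosomal protein genes encode the protein part of the ribosome that works inside mitochondria. They were taken as every protein-coding gene whose symbol begins with Mrpl (large subunit) or Mrps (small subunit) followed by a digit, which gave 78 genes, 49 Mrpl and 29 Mrps, of 48709 gene identifiers in the count files. The mice were E16.5 embryos whose cortex had received trichostatin A (TSA), an inhibitor of class I and II histone deacetylases, or vehicle, and nuclei had been sorted by their content of Tbr2, the transcription factor of basal progenitors encoded by Eomes. The labels name no strain, no transgene, no dose and no duration, and they do not say that replicates came from separate animals, so that p-values measure the spread between these libraries, which may be technical. RNA-seq covered Tbr2-positive TSA (2 libraries), Tbr2-positive vehicle (3), Tbr2-negative TSA (2) and Tbr2-negative vehicle (3). ChIP-seq was done for H3K9ac, acetylated lysine 9 of histone H3 at active promoters, in Tbr2-positive TSA (4 libraries), Tbr2-positive vehicle (3), Tbr2-negative TSA (4) and Tbr2-negative vehicle (4). The sources speak both of sorted Tbr2-labelled material and, for the RNA, of extraction from whole tissue. Eomes lay between 371 and 548 CPM in the positive libraries and between 8.24 and 22.0 CPM in the negative ones, so the sort was visible in the RNA.

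The mitochondrial ribosome translates the few mRNAs of the mitochondrial genome, all of them for subunits of the respiratory chain and ATP synthase. Its 2 ribosomal RNAs come from mitochondrial DNA, while every protein is encoded in the nucleus, made in the cytosol and imported. The nuclear genes lie scattered over the genome: the 78 members occupied 17 chromosomes, with 11 on chromosome 11 and 8 on chromosome 17. Promoters of such genes are known for CpG islands and for sites of the factors NRF1, GABPA (an ETS factor) and YY1.

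The windows from 250 bases before to 50 bases after a listed transcription start were read for these motifs, on both strands. The 4 windows printed here belong to a pair of members that share a promoter region and to 3 members with large TSA differences below, with and without a motif match. Capitals mark matches to GCGCA, any base, GCGC (NRF1), to CCGGAAG (ETS) or to AA, any base, ATGGCGG (YY1), and the windows are RefSeq sequence of the build GRCm38.p6.
Mrps11, chr7:78782881-78783180, + strand: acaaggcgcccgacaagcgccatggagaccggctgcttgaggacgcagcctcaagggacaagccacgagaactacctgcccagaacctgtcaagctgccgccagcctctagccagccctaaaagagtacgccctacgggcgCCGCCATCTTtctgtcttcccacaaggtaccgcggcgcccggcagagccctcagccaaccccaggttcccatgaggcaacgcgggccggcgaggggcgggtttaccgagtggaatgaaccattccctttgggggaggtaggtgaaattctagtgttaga
Mrps21, chr3:95871465-95871764, - strand: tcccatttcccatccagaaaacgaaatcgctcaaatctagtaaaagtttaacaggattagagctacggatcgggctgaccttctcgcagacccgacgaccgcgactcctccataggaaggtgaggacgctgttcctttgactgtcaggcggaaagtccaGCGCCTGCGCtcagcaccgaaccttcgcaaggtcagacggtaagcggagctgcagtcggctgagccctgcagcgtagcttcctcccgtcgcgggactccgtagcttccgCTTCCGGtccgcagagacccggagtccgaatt
Mrpl32, chr13:14612988-14613287, - strand: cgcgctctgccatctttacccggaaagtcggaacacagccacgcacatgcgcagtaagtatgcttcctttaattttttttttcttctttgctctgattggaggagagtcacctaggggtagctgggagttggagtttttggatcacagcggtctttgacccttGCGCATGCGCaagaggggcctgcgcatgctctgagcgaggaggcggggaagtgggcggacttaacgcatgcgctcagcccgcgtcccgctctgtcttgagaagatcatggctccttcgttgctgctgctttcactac
Mrpl42, chr10:95501900-95502199, - strand: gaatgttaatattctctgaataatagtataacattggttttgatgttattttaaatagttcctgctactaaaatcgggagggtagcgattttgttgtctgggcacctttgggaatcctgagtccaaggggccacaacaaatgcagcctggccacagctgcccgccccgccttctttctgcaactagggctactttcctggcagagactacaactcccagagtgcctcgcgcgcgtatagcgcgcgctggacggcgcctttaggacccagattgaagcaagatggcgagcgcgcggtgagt
The Mrps11 window holds the starts of both Mrps11 and Mrpl46, which run away from each other 42 bp apart, and a YY1 match that begins 109 bases upstream of the Mrps11 start. The Mrps21 window has an NRF1 match that begins 91 bases upstream and an ETS match that begins 18 bases downstream of the start. The Mrpl32 window has an NRF1 match 87 bases upstream, and the Mrpl42 window has none of these letters.

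A listed start was found for 69 members. The NRF1 letters occurred in the windows of 13 of them (18.8%), against 7.17% of the 17492 genes with a window. The ETS letters occurred in 26 (37.7%, against 12.9%) and the YY1 letters in 7 (10.1%, against 2.26%). Among letters of general promoter elements, GGGCGG (Sp1) stood in 49.3% against 49.2%, CCAAT in 39.1% against 42.3%, and TATAAA in 7.25% against 14.8%. GGGCGG and CCGGAAG matches overlapped in 2 member windows. The median ratio of observed to expected CpG was 0.82 over 75 member windows and 0.57 over all 21263 windows, where a gene can have more than 1. These counts describe letters and were not tested.

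RNA levels are given as CPM, counts scaled to library size, computed from the deposited counts with library sizes scaled by TMM, and they do not correct for transcript length. Together the members took 0.684% and 0.612% of all counts in the Tbr2-positive TSA libraries, against 0.485%, 0.545% and 0.535% in Tbr2-positive vehicle. In Tbr2-negative nuclei the shares were 0.674% and 0.604% in TSA, against 0.488%, 0.526% and 0.505% in vehicle. The TSA libraries of either population did not overlap with their vehicle libraries. Library totals ran from 18567111 to 26282652 counts, and 77 members passed the filter on low counts. The exception was Mrpl53, at 0.0418 to 0.338 CPM. Highest by mean CPM were Mrpl28 (255 CPM), Mrps17 (198.8 CPM) and Mrpl20 (170 CPM), and the lowest after Mrpl53 were Mrps34 (6.73 CPM) and Mrps36 (12.5 CPM). The libraries do not keep the strand, and 20 members overlap another protein-coding gene, so part of their reads cannot be told apart from those of the neighbour.

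**Figure D1:**
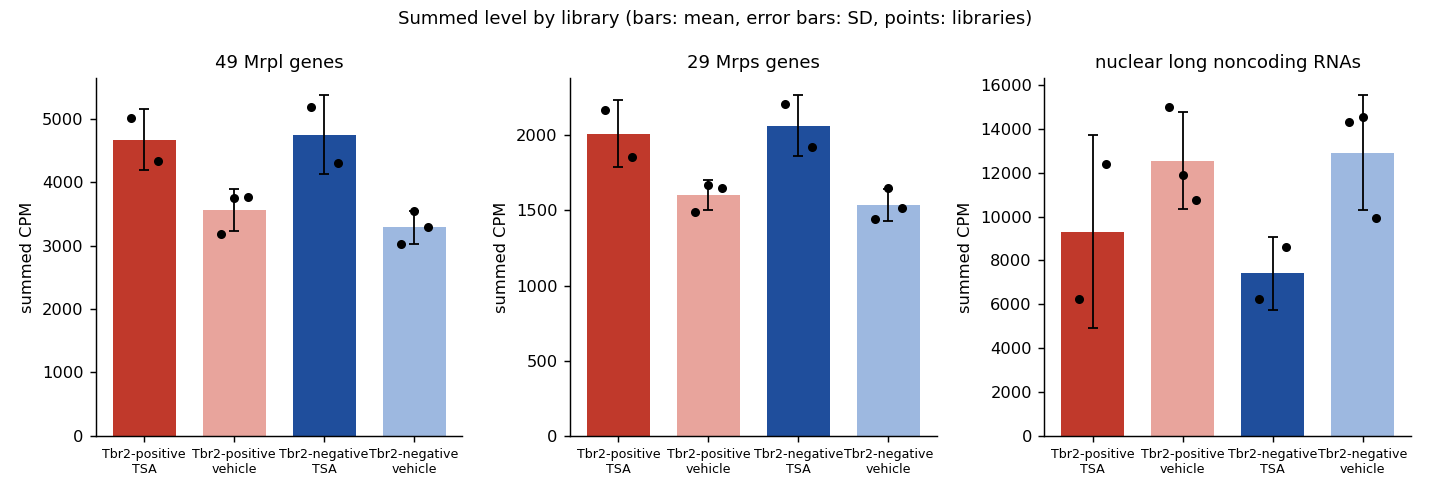
Summed CPM of the Mrpl genes, the Mrps genes and a list of nuclear long noncoding RNAs, by group. Bars are means, error bars SD and points single libraries. The Mrpl and Mrps sums are higher in every TSA library than in every vehicle library of the same population. The noncoding RNA sums overlap between TSA and vehicle in Tbr2-positive nuclei. In Tbr2-negative nuclei these sums are lower in every TSA library than in every vehicle library.

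The first comparison asked what TSA did to these transcripts across both populations, as the mean of the TSA differences in Tbr2-positive and Tbr2-negative nuclei. Of 77 members tested, 37 were higher with TSA and 0 were lower (edgeR quasi-likelihood test, Benjamini-Hochberg adjusted p below 0.05), against 6.39% of all 20078 genes tested that were higher and 4.46% that were lower (10.8% in either direction). The log2 fold change was above 0 for 72 members, with a median of 0.44, against -0.08 over all genes tested. Both symbol groups shared in it: 25 of 48 Mrpl and 12 of 29 Mrps genes were higher, with medians of 0.43 and 0.45. These groups follow the symbol and not the subunit, since the Mrps genes include Mrps18a and Mrps36, described below. Over all genes, same-numbered Tbr2-positive and Tbr2-negative libraries deviated together, so the 10 libraries are not fully independent. Each such pair was also summed to 1 unit, an alternative added after seeing the data. There 12 members were higher and 0 lower, against 2.36% and 1.02% of all genes in that fit.

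The largest difference was that of Mrpl42, a mitochondria-specific protein of the large subunit. It had 160 and 164 CPM in Tbr2-positive TSA, against 67.5, 95.0 and 106 CPM in Tbr2-positive vehicle, and 193 and 150 CPM in Tbr2-negative TSA, against 62.8, 92.6 and 88.9 CPM in Tbr2-negative vehicle. All 4 TSA libraries lay above all 6 vehicle libraries, and the mean log2 fold change was 0.96 ± 0.15 (SE; adjusted p = 0.00558, edgeR). Mrpl18, a protein of the central protuberance of the large subunit, had 151 and 140 CPM in Tbr2-positive TSA, against 64.2, 89.8 and 102 CPM in vehicle. In Tbr2-negative nuclei it had 156 and 122 CPM with TSA, against 59.6, 80.2 and 73.2 CPM with vehicle. Its groups did not overlap in either population, with a mean log2 fold change of 0.87 ± 0.14 (adjusted p = 0.00648, edgeR); 22.6% of its span is shared with Tcp1. The small-subunit protein gene Mrps33 had 57.6 and 51.5 CPM in Tbr2-positive TSA, against 22.2, 33.8 and 41.9 CPM in vehicle, and 63.6 and 50.3 CPM in Tbr2-negative TSA, against 25.7, 30.8 and 27.9 CPM in vehicle. Again no TSA library reached down to the vehicle libraries (0.88 ± 0.17, adjusted p = 0.00944, edgeR).

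**Figure D2:**
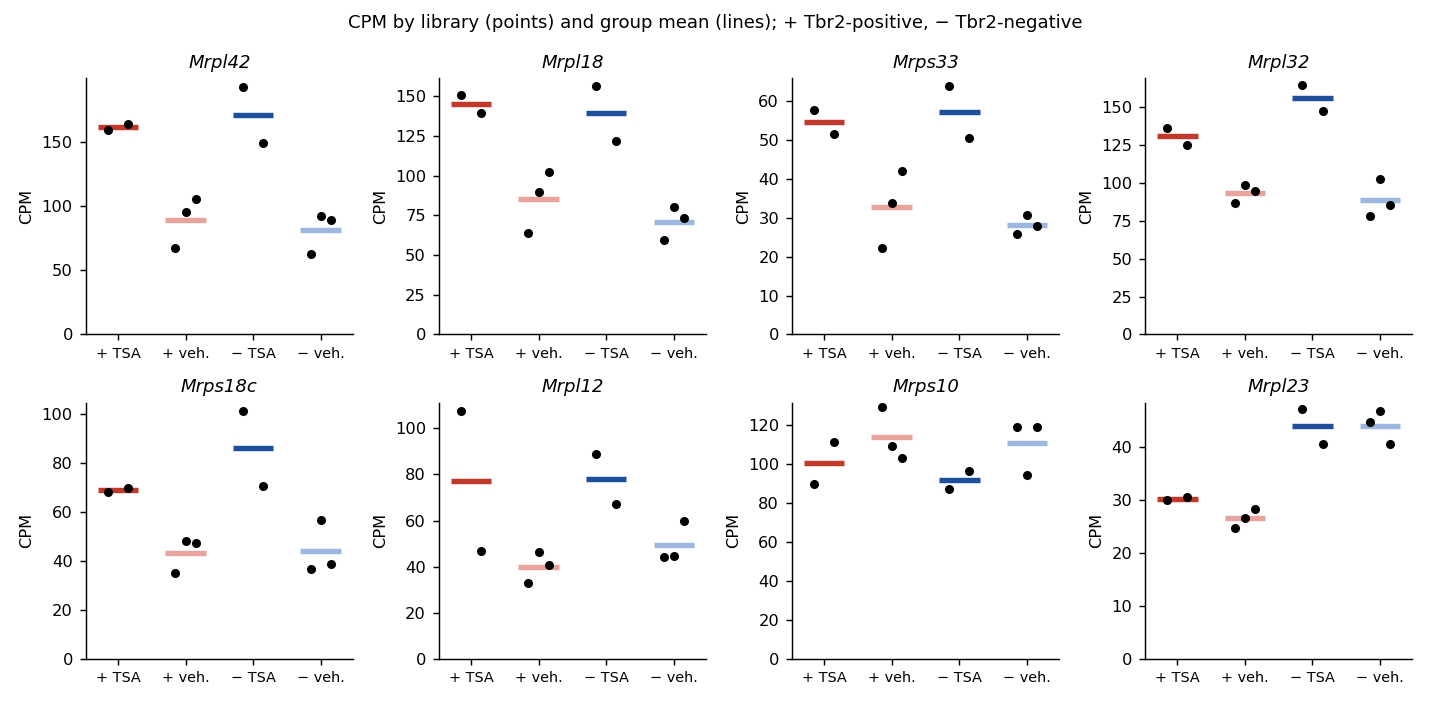
CPM of 8 members in each of the 10 RNA libraries (points), with the group mean as a line; + stands for Tbr2-positive, − for Tbr2-negative and veh. for vehicle. Mrpl42, Mrpl18, Mrps33 and Mrpl32 are higher in every TSA library than in every vehicle library, Mrpl12 has 1 high library of 107 CPM in Tbr2-positive TSA, Mrps10 overlaps between agents, and Mrpl23 separates the populations.

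Mrpl46 and Mrps11, the pair whose shared window is printed above, were both higher. Mrpl46 had 81.3 and 79.2 CPM in Tbr2-positive TSA, against 35.2, 55.6 and 58.8 CPM in vehicle, and 85.7 and 63.2 CPM in Tbr2-negative TSA, against 34.4, 40.9 and 45.9 CPM in vehicle (mean log2 fold change 0.78 ± 0.16, adjusted p = 0.0114, edgeR). Mrps11 had 95.8 and 84.0 CPM in Tbr2-positive TSA, against 49.96, 65.9 and 60.5 CPM in vehicle, and 100.3 and 86.1 CPM in Tbr2-negative TSA, against 59.7, 68.5 and 58.6 CPM in vehicle (0.60 ± 0.12, adjusted p = 0.0106, edgeR). In neither gene did the groups overlap. Mrps6, a small-subunit protein, had 98.2 and 73.2 CPM in Tbr2-positive TSA, against 45.4, 52.6 and 55.8 CPM in vehicle, and 116 and 109 CPM in Tbr2-negative TSA, against 48.9, 76.9 and 71.5 CPM in vehicle (0.76 ± 0.14, adjusted p = 0.00944, edgeR). Mrpl30 of the large subunit had 149 and 143 CPM in Tbr2-positive TSA, against 79.4, 99.4 and 106 CPM in vehicle, and 185 and 155 CPM in Tbr2-negative TSA, against 71.3, 118 and 93.5 CPM in vehicle (0.74 ± 0.14, adjusted p = 0.01, edgeR). Both were above vehicle in every TSA library of their population, and with Mrps18c and Mrpl12 they complete the 8 largest differences past the threshold. The span of Mrps6 is shared with Slc5a3 over 54.1% of its length.

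One library decided many of these calls. Without Tbr2-negative TSA library 1, 3 members were higher in the mean of both populations, against 0.819% of all genes in that fit, and Mrps33, Mrps18c, Mrpl46, Mrps6, Mrpl30 and Mrpl12 no longer passed, while Mrpl42 and Mrpl18 passed in each of 15 alternatives. Without Tbr2-positive TSA library 1 the count was 14 (2.21% of all genes), without Tbr2-positive vehicle library 1 it was 24 (3.57%) and without Tbr2-negative vehicle library 1 it was 23 (3.66%). Over all 10 libraries left out in turn the median log2 fold change of the members stayed between 0.37 and 0.50.

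In all, 5 members were below 0 in the mean of both populations and none of them passed. Mrps10, a small-subunit protein, had 89.6 and 111 CPM in Tbr2-positive TSA, against 129, 109 and 103 CPM in vehicle, and 87.0 and 96.1 CPM in Tbr2-negative TSA, against 119, 93.9 and 119 CPM in vehicle. These groups overlapped (-0.23 ± 0.12, adjusted p = 0.259, edgeR). The other 4 lay between -0.10 (Mrpl38) and -0.02 (Mrps35), with Mrpl3 at -0.06 and Mrps15 at -0.03.

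**Figure D3:**
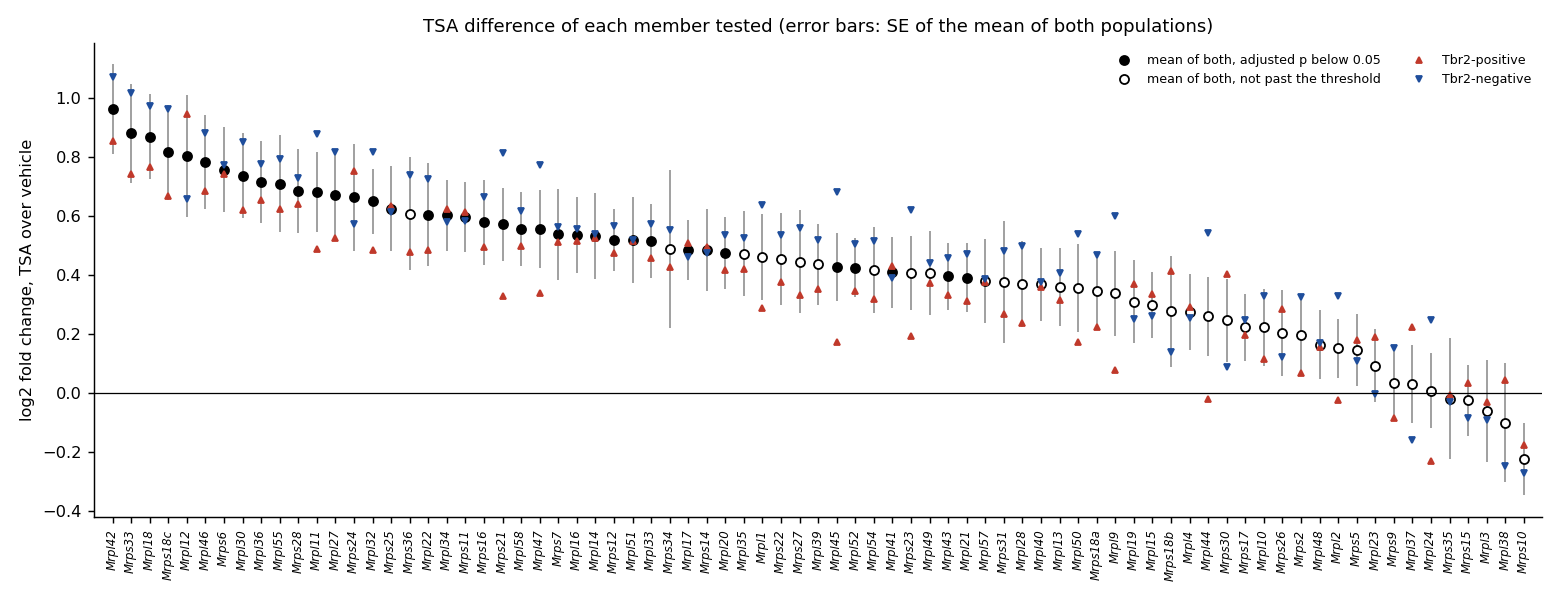
Log2 fold change of TSA over vehicle for the 77 members tested, ordered by the mean of both populations (circles, with SE; filled where the adjusted p is below 0.05), with the Tbr2-positive (up triangles) and Tbr2-negative (down triangles) values. The circles run from 0.96 for Mrpl42 to -0.23 for Mrps10, and 72 of 77 lie above 0.

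In Tbr2-negative nuclei alone 5 members were higher with TSA and 0 lower, against 0.817% of all genes tested that were higher and 0.359% that were lower (1.18% in either direction). The 5 were Mrpl42 (1.07 ± 0.21, adjusted p = 0.0482), Mrpl18 (0.97 ± 0.20, adjusted p = 0.0482), Mrpl11 (0.88 ± 0.19, adjusted p = 0.0492), Mrpl32 (0.82 ± 0.16, adjusted p = 0.0481) and Mrps21 (0.81 ± 0.18, adjusted p = 0.0482, all edgeR). Mrpl32, whose precursor is matured by the mitochondrial m-AAA protease before ribosome assembly, had 164 and 147 CPM in Tbr2-negative TSA, against 77.7, 102 and 85.1 CPM in vehicle. Mrpl11, at the base of the stalk that recruits translation factors, had 139 and 118 CPM with TSA, against 62.4, 79.4 and 68.1 CPM with vehicle. Mrps21 had 86.8 and 70.1 CPM with TSA, against 41.0, 46.9 and 45.9 CPM with vehicle. In all 5 the lowest TSA library stood above the highest vehicle library, as it did for 61 of the 77 members, against 19.7% of all genes tested; no member had all TSA libraries below vehicle, against 21% of all genes. The median log2 fold change over the members was 0.53, against -0.08 over all genes. Below 0, with no call, the smallest p were those of Mrps10 (-0.27 ± 0.17), Mrpl38 (-0.25 ± 0.29), Mrpl37 (-0.16 ± 0.19), Mrps15 (-0.08 ± 0.17) and Mrpl3 (-0.09 ± 0.24). All 5 adjusted p of the members called lay just under the threshold. The count was 0 without Tbr2-negative vehicle library 1 or 3 and without Tbr2-positive vehicle library 2. In those fits 0% of all genes passed in either direction. Members called higher numbered 9 without Tbr2-positive vehicle library 1 (1.46% of all genes higher) and 13 without Tbr2-negative vehicle library 2 (2.45%). Leaving out a TSA library left 1 library in its group, so no counts are given here for those fits. Over all 10 libraries left out in turn the median log2 fold change of the members stayed between 0.41 and 0.67. An unadjusted p below 0.05 in edgeR was reached by 53 members, all of them higher, against 10.3% of all genes that were higher and 9.78% that were lower by that rule. DESeq2 called 28 members higher and 0 lower, against 5.41% and 4.56% of all genes.

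In Tbr2-positive nuclei alone no member passed in edgeR, as was true of all 20078 genes (0%), although 31 members had an unadjusted p below 0.05, all of them higher, against 8.04% of all genes that were higher and 7.77% that were lower by that rule. DESeq2 called 9 members higher and 0 lower, against 2.73% and 2.32% of all genes. Without Tbr2-positive TSA library 2 edgeR called 1 member, higher, against 0.0689% of all genes higher. The log2 fold change was above 0 for 70 of 77 members, with a median of 0.37, against -0.04 over all genes. The TSA libraries stood above all vehicle libraries for 45 members and below them for 1, Mrpl24, against 15.9% and 17.6% of all genes tested. The 5 smallest unadjusted p belonged to Mrpl42 (0.85 ± 0.21, adjusted p = 0.102), Mrpl18 (0.77 ± 0.20, adjusted p = 0.111), Mrpl34 (0.63 ± 0.17, adjusted p = 0.117), Mrps11 (0.61 ± 0.17, adjusted p = 0.117) and Mrps6 (0.74 ± 0.20, adjusted p = 0.119, all edgeR), none of which passed. Towards lower levels the smallest p were those of Mrpl24 (-0.23 ± 0.18) and Mrps10 (-0.18 ± 0.17), followed by Mrps9, Mrpl2 and Mrpl3 between -0.09 and -0.03. In both populations 66 members had a log2 fold change above 0, 3 had one below 0 and 8 had opposite signs.

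Whether the TSA difference itself differed between the populations was tested as an interaction. No member passed (edgeR; 0% of all genes; 0 members in DESeq2, with 0.0349% of all genes above 0 and 0.0199% below), and the median of Tbr2-positive minus Tbr2-negative differences was -0.12 over the members. An unadjusted p below 0.05 was reached by 1 member, below 0, while 2.96% of all genes reached it above 0 and 2.54% below. Mrpl45, which tethers the ribosome to the inner membrane, had the smallest p. It had 93.0 and 86.5 CPM in Tbr2-positive TSA, against 72.5, 92.4 and 74.1 CPM in vehicle, and 99.5 and 97.8 CPM in Tbr2-negative TSA, against 54.9, 67.9 and 61.6 CPM in vehicle. The groups overlapped in Tbr2-positive and not in Tbr2-negative nuclei. The interaction for Mrpl45 was -0.51 ± 0.23 on the log2 scale (unadjusted p = 0.0462, adjusted p = 0.895, edgeR), and next came Mrpl44 (-0.56 ± 0.27), Mrps21 (-0.49 ± 0.25), Mrpl24 (-0.48 ± 0.25) and Mrpl9 (-0.52 ± 0.29). In the other direction the smallest p were those of Mrpl37 (0.38 ± 0.27), Mrps30 (0.32 ± 0.28), Mrpl23 (0.19 ± 0.25), Mrps18b (0.28 ± 0.38) and Mrpl38 (0.29 ± 0.40).

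Members with distinct roles were read one by one in the mean of both populations. Mrpl12, the stalk protein that also binds the mitochondrial RNA polymerase, had 107 and 46.7 CPM in Tbr2-positive TSA, against 32.8, 46.4 and 40.7 CPM in vehicle, and 89.0 and 67.2 CPM in Tbr2-negative TSA, against 44.0, 44.7 and 59.6 CPM in vehicle. Its TSA libraries stood above vehicle in both populations, in Tbr2-positive nuclei narrowly. It was higher by 0.80 ± 0.21 (adjusted p = 0.028, edgeR), but the value was 0.44 and did not pass without Tbr2-positive TSA library 1, the library at 107 CPM. The call also ended without Tbr2-negative TSA library 1, without vehicle library 1 of either population and with same-numbered libraries summed. Mrps12, a protein of the decoding centre, had 103 and 92.0 CPM in Tbr2-positive TSA, against 67.4, 74.1 and 69.5 CPM in vehicle, and 104 and 87.4 CPM in Tbr2-negative TSA, against 65.7, 67.3 and 61.2 CPM in vehicle. Its TSA and vehicle libraries did not overlap, and it was higher by 0.52 ± 0.11 (adjusted p = 0.0113, edgeR). Mrpl58 (ICT1), a peptidyl-tRNA hydrolase that rescues stalled ribosomes, had 109 and 80.5 CPM in Tbr2-positive TSA, against 57.8, 71.3 and 72.4 CPM in vehicle, and 109 and 91.3 CPM in Tbr2-negative TSA, against 59.3, 66.4 and 70.1 CPM in vehicle. It did not overlap either and was higher by 0.56 ± 0.13 (adjusted p = 0.0175, edgeR). Both calls, of Mrps12 and of Mrpl58, ended with the same-numbered libraries summed and without TSA library 1 of either population.

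The 3 paralogs of bacterial S18 differed in their calls. Mrps18c, a small-subunit protein, had 68.2 and 69.5 CPM in Tbr2-positive TSA, against 34.8, 48.0 and 47.0 CPM in vehicle, and 101 and 70.4 CPM in Tbr2-negative TSA, against 36.6, 56.7 and 38.7 CPM in vehicle (0.82 ± 0.16, adjusted p = 0.0104, edgeR), with no overlap in either population. Mrps18a, which sits in the large subunit despite its symbol, had 141 and 117 CPM in Tbr2-positive TSA, against 92.8, 121 and 119 CPM in vehicle, and 181 and 144 CPM in Tbr2-negative TSA, against 110, 125 and 117 CPM in vehicle. Its groups overlapped in Tbr2-positive nuclei only, and 38.4% of its span is shared with Rsph9. On the log2 scale it had 0.35 ± 0.12 (adjusted p = 0.0865, edgeR) and Mrps18b 0.28 ± 0.19 (adjusted p = 0.37, edgeR), and neither passed. The differences between the paralogs were not tested. In Tbr2-positive nuclei Mrps18b had 21.1 and 13.1 CPM with TSA, against 14.4, 11.5 and 12.6 CPM with vehicle, and these groups overlapped. In Tbr2-negative nuclei it had 14.1 and 14.6 CPM with TSA, against 12.7, 13.8 and 12.7 CPM with vehicle, without overlap. Mrps36, now assigned to the 2-oxoglutarate dehydrogenase complex and not to the ribosome, had 14.8 and 13.03 CPM in Tbr2-positive TSA, against 8.97, 10.7 and 10.3 CPM in vehicle, and 20.05 and 15.6 CPM in Tbr2-negative TSA, against 8.49, 11.1 and 12.5 CPM in vehicle. These groups did not overlap, but its 0.61 ± 0.19 did not pass (adjusted p = 0.0598, edgeR). Of the 3 members with the highest CPM, Mrpl20 was higher (0.48 ± 0.12, adjusted p = 0.0286), and Mrpl28 (0.37 ± 0.15, adjusted p = 0.124) and Mrps17 (0.22 ± 0.11, adjusted p = 0.225, all edgeR) did not pass, nor did Mrps34 (0.49 ± 0.27).

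Other gene lists of mitochondrial protein synthesis were counted in the mean of both populations, where 6.39% of all genes tested were higher and 4.46% lower. Both mitochondrially encoded ribosomal RNAs, the RNA partners of these proteins, were higher: mt-Rnr1 by 1.56 ± 0.17 (adjusted p = 0.0028, edgeR) and mt-Rnr2 by 1.01 ± 0.19 (adjusted p = 0.0084, edgeR). Summed, they stood at 995 and 928 CPM in Tbr2-positive TSA, against 382, 405 and 553 CPM in vehicle. In Tbr2-negative nuclei they stood at 2011 and 1019 CPM with TSA, against 645, 921 and 692 CPM with vehicle. Of 7 mitochondrially encoded mRNAs tested none passed (edgeR), with a median of 0.84. The sums of these mRNAs ran from 558 to 2530 CPM within Tbr2-positive vehicle and from 391 to 1883 CPM within Tbr2-negative vehicle. With TSA they ran from 2201 to 2372 CPM in Tbr2-positive and from 2278 to 2816 CPM in Tbr2-negative nuclei. How much mitochondrial RNA stayed with the sorted nuclei was not measured. Of 5 mitoribosomal proteins with other symbols 2 were higher, Chchd1 (0.82 ± 0.13) and Aurkaip1 (0.46 ± 0.14), and 0 lower. Of 13 mitochondrial translation factors 1 was higher and 3 were lower, the higher one being Slirp, an RNA-binding protein of mitochondrial mRNAs (0.39 ± 0.11). The lower ones were the initiation factor Mtif2 (-0.67 ± 0.12, adjusted p = 0.0084, edgeR), the elongation factor Guf1 (-0.75 ± 0.16, adjusted p = 0.0144, edgeR) and the ribosome recycling factor Gfm2 (-0.66 ± 0.15), and the list median was -0.11. Of 21 mitochondrial aminoacyl-tRNA synthetases 0 were higher and 1, Vars2, was lower (-1.05 ± 0.28, adjusted p = 0.0336), with a median of -0.23. Of 22 assembly and rRNA modification factors 0 were higher and 1, the helicase Dhx30, was lower (-0.64 ± 0.13, adjusted p = 0.0113, edgeR), with a median of -0.02. A single gene among 21 or 22 is close to the share over all genes. Of 11 genes of mitochondrial DNA expression and 9 regulators of mitochondrial biogenesis none passed (edgeR), with medians of 0.15 and -0.26; Tfam stood at 0.40 ± 0.13, Yy1 at 0.48 ± 0.18 and Nrf1 at -0.28 ± 0.12.

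Beyond mitochondrial protein synthesis, 2 larger nuclear-encoded lists were also mostly higher. Of 80 cytosolic ribosomal protein genes 74 were higher and 0 lower, with a median of 0.84. Of 80 respiratory chain subunit genes 59 were higher and 1, Sdha, was lower (-0.47 ± 0.11), with a median of 0.67. A list of 10 nuclear long noncoding RNAs had 0 higher and 5 lower (Neat1, Gm26917, Miat, Snhg11 and Meg3, from -1.72 to -1.14), with a median of -0.84. Summed, that list stood at 6215 and 12413 CPM in Tbr2-positive TSA, against 15008, 11880 and 10750 CPM in vehicle, and at 6231 and 8586 CPM in Tbr2-negative TSA, against 14309, 14531 and 9913 CPM in vehicle. It was lowest in TSA library 1 of each population, the libraries with the higher member sums, and its part in the results was not tested. Marker lists of cell types gave 3 of 10 interneuron genes higher (Sst by 1.25 ± 0.18, Npy by 0.83 ± 0.23 and Dlx5 by 0.77 ± 0.20), 1 of 10 each for basal progenitors (Insm1), radial glia (Sox2) and pan-neuronal genes (Stmn2), and 0 lower in these 4 lists. A single gene among 10 is close to the 6.39% of all genes that were higher. None of 8 microglial, 6 erythroid and 9 vascular and meningeal genes passed in either direction (edgeR). Interneuron genes summed to 274 to 299.8 CPM in Tbr2-positive TSA, against 136 to 285 CPM in vehicle, and to 1567 to 1766 CPM in Tbr2-negative TSA, against 825 to 1043 CPM in vehicle. Pan-neuronal sums were 6105 to 6758 CPM in Tbr2-positive TSA, against 4669 to 5640 CPM in vehicle, without overlap. In Tbr2-negative nuclei they were 10702 to 11896 CPM with TSA, against 8190 to 10201 CPM with vehicle, again without overlap. Radial glia sums overlapped in Tbr2-positive nuclei and were 1102 to 1169 CPM in Tbr2-negative TSA, against 878 to 937 CPM in vehicle. Basal progenitor sums overlapped between TSA and vehicle in both populations. Microglial genes summed to 16.6 to 22.2 CPM in Tbr2-positive TSA, against 16.8 to 28.5 CPM in vehicle, and to 53.7 to 71.2 CPM in Tbr2-negative TSA, against 35.6 to 62.0 CPM in vehicle. Vascular and meningeal genes summed to 27.5 to 27.8 CPM in Tbr2-positive TSA, against 24.4 to 44.7 CPM in vehicle, and to 31.7 to 36.6 CPM in Tbr2-negative TSA, against 35.6 to 58.6 CPM in vehicle. Erythroid genes summed to 346 to 523 CPM in Tbr2-positive TSA, against 283 to 455 CPM in vehicle, and to 386 to 674 CPM in Tbr2-negative TSA, against 483 to 704 CPM in vehicle. No tested gene list of a cell type had a gene at 0 in a whole group, and their part in the results was not tested. In such bulk samples a change in cell makeup and a change per cell cannot be told apart.

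**Figure D4:**
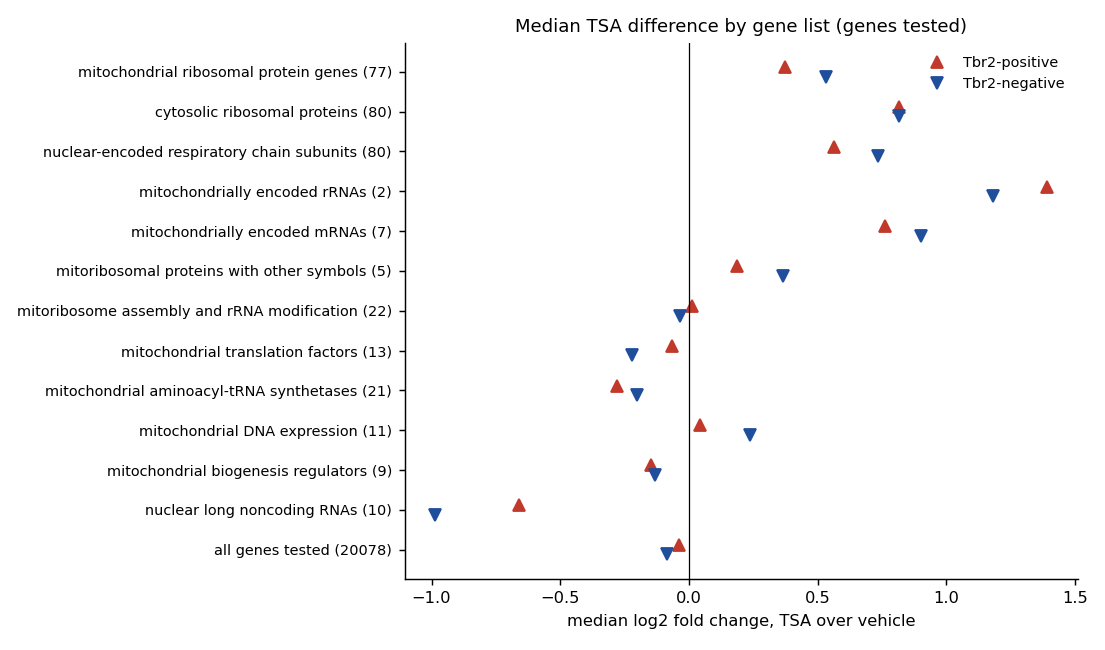
Median log2 fold change of TSA over vehicle for 12 gene lists and for all genes tested, in Tbr2-positive (up triangles) and Tbr2-negative nuclei (down triangles), with the number of genes tested in brackets. The mitochondrial ribosomal protein genes lie at 0.37 and 0.53, below the cytosolic ribosomal protein genes at 0.82 and 0.82 and above all genes tested at -0.04 and -0.08.

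The next comparison set Tbr2-positive against Tbr2-negative nuclei, the basal progenitor fraction against the nuclei without the marker. In vehicle 3 members were higher and 1 was lower in the positive nuclei, against 9.96% and 11.5% of all genes tested (21.4% in either direction). Every positive library was above every negative one for 11 members and below for 5, against 18.4% and 21.3% of all genes. With the replicate number as a block within each agent, which these comparisons allow, 5 members were higher and 1 lower, against 11.5% and 12.5% of all genes. The median log2 fold change was 0.12 over the members and -0.05 over all genes.

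Mrpl23, a protein near the exit of the peptide tunnel, was the member lower in the positive nuclei. It had 24.7, 26.7 and 28.2 CPM in Tbr2-positive vehicle, against 44.8, 46.8 and 40.6 CPM in Tbr2-negative vehicle, and the groups did not overlap (-0.73 ± 0.16, adjusted p = 0.00495, edgeR). The call held in each of 16 alternatives, with values from -0.77 to -0.66. The libraries also held 18 to 45 counts of the pseudogene Mrpl23-ps1, against at least 586 counts of Mrpl23. With TSA the same gene had 29.97 and 30.5 CPM in Tbr2-positive nuclei, against 47.2 and 40.6 CPM in Tbr2-negative nuclei, again without overlap, but did not pass (-0.54 ± 0.19, adjusted p = 0.105, edgeR). The next members in the lower direction, Mrpl41 (-0.32 ± 0.15), Mrps30 (-0.37 ± 0.18), Mrps6 (-0.36 ± 0.19), Mrpl19 (-0.28 ± 0.18) and Mrps24 (-0.34 ± 0.23), did not pass in vehicle.

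Mrpl24, also near the tunnel exit, had 45.6, 45.0 and 51.6 CPM in Tbr2-positive vehicle, against 26.7, 34.7 and 33.1 CPM in Tbr2-negative vehicle (0.59 ± 0.16, adjusted p = 0.0188, edgeR); 16% of its span is shared with Rrnad1. Mrpl39 had 52.7, 66.6 and 74.5 CPM in Tbr2-positive vehicle, against 43.2, 47.6 and 37.8 CPM in Tbr2-negative vehicle (0.59 ± 0.18, adjusted p = 0.0295, edgeR). Mrpl2, a protein beside the peptidyl transferase centre, had 89.2, 87.9 and 100.004 CPM in Tbr2-positive vehicle, against 68.6, 70.0 and 64.8 CPM in Tbr2-negative vehicle (0.45 ± 0.13, adjusted p = 0.0238, edgeR). In each of the 3 genes every positive library was above every negative one. Without Tbr2-positive vehicle library 3 or without Tbr2-negative vehicle library 1 no member was called higher, against 7.92% and 8.43% of all genes in those fits. Without Tbr2-negative vehicle library 3, 1 member was called higher, against 7.5% of all genes. Among members that did not pass, Mrpl13 (0.45 ± 0.17, adjusted p = 0.0754), Mrpl45 (0.37 ± 0.15), Mrps9, Mrps22 and Mrpl40 had the next smallest p.

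With TSA no member passed between the populations in edgeR or in DESeq2, against 4.19% and 5.13% of all genes tested that were higher and lower in edgeR (9.32% in either direction) and 7.06% and 7.93% in DESeq2. An unadjusted p below 0.05 in edgeR was reached by 2 members, Mrpl37 above 0 and Mrpl23 below, against 10.4% of all genes above 0 and 12.6% below. The libraries of the positive nuclei were all above for 11 members and all below for 16, against 23.6% and 27.3% of all genes. Mrpl37 had 145 and 102 CPM in Tbr2-positive TSA, against 86.9 and 83.3 CPM in Tbr2-negative TSA (0.54 ± 0.21, adjusted p = 0.13, edgeR). Next among higher values, none of them called, were Mrpl39 (0.43 ± 0.21), Mrpl40 (0.35 ± 0.20), Mrpl13 (0.36 ± 0.21) and Mrpl48 (0.29 ± 0.18). Among lower ones Mrps18a (-0.33 ± 0.19), Mrps6 (-0.39 ± 0.23), Mrps23 (-0.33 ± 0.20) and Mrpl44 (-0.33 ± 0.21) followed Mrpl23. The median over the members was -0.04, and it was 0.13 without Tbr2-negative TSA library 1.

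H3K9ac was read from the peaks the authors called in each library, as the presence of a peak within 1 kb of either gene end, and not from peak height, since heights of separate calls share no scale. Nearly every member had such a peak in every group: 93.9% ± 0.64 of the 78 in Tbr2-positive TSA (mean ± SD, n = 4), against 95.3% ± 0.74 in Tbr2-positive vehicle (n = 3), and 95.2% ± 1.23 in Tbr2-negative TSA (n = 4), against 95.5% ± 1.28 in Tbr2-negative vehicle (n = 4). Over 21887 protein-coding genes the shares were 57.8% in Tbr2-positive TSA, against 63.7% in Tbr2-positive vehicle, and 63.3% in Tbr2-negative TSA, against 64.4% in Tbr2-negative vehicle. In all 15 libraries 73 members had a peak (93.6%, against 54.4% of all genes), and 1 member, Mrpl22, had one in no library. No member gained or lost its peak between any of the groups compared, meaning a peak in every library of 1 group and in none of the other, while in Tbr2-positive nuclei 0.00457% of all genes gained and 1.06% lost one with TSA. In Tbr2-negative nuclei these shares were 0.00914% and 0.0274%. Between the populations 0.101% of all genes had a peak only in the Tbr2-positive and 0.42% only in the Tbr2-negative libraries with vehicle, and 0.00457% and 1.35% with TSA. The share of members differed by -1.39 percentage points between TSA and vehicle in Tbr2-positive nuclei and by -0.32 in Tbr2-negative nuclei, and between Tbr2-positive and Tbr2-negative nuclei by -1.28 with TSA and -0.21 with vehicle, each about 1 gene or less.

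Besides Mrpl22, 4 members lacked a gene-end peak in some libraries. Mrps23 had a gene-end peak in 1 library, Mrpl24 in 2, Mrpl4 in 3 and Mrps2 in 10 of 15. The listed starts of Mrpl22, Mrpl24, Mrps2 and Mrps23 lie 1621, 1413, 2115 and 7119 bp from the nearest end of the annotated gene, and all 4 had a peak within 1 kb of that start in every library. Mrpl4 has no start in the table used. With the window set around starts, all 69 members with a listed start had a peak in all 15 libraries. Another protein-coding gene ends or begins within 1 kb of 44 members, as Mrps11 does beside Mrpl46 and Sars2 beside Mrps12, so a peak there cannot be given to 1 gene alone.

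**Figure D5:**
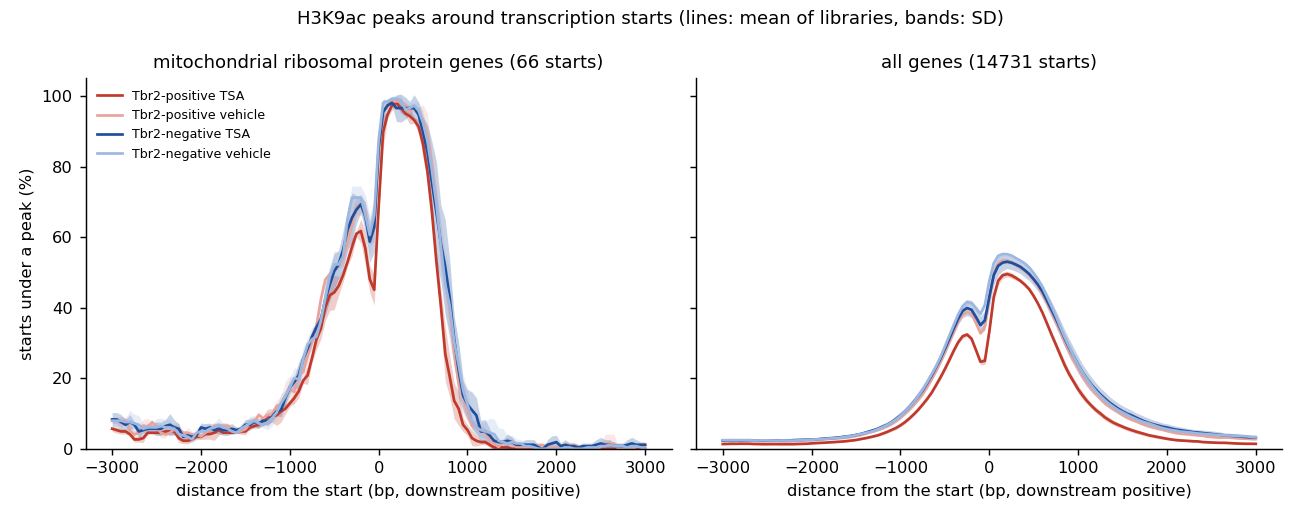
Share of transcription starts that lie under a deposited H3K9ac peak, by distance from the start, for 66 members and 14731 genes with 1 listed start; lines are means over libraries and bands SD. Over the members the share reaches 98.1% to 99.2% at 150 to 200 bp downstream, against 49.5% to 55.2% over all genes, and dips just upstream of the start. At the start itself 68.6% of the member starts lay under a peak in Tbr2-positive TSA, against 84.8% in Tbr2-positive vehicle, and 85.2% in Tbr2-negative TSA, against 87.5% in Tbr2-negative vehicle. Over all genes the shares there were 33.2% in Tbr2-positive TSA, against 42.8% in Tbr2-positive vehicle, and 43.0% in Tbr2-negative TSA, against 47.6% in Tbr2-negative vehicle.

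Around the start the peaks of the members covered similar lengths in 3 of the 4 groups. The median covered length within 1 kb of a start was 1084 ± 49.4 bp in Tbr2-positive TSA (SD, n = 4), against 1237 ± 18.3 bp in Tbr2-positive vehicle (n = 3), and these libraries did not overlap. In Tbr2-negative nuclei it was 1195 ± 68.7 bp with TSA, against 1235 ± 78.3 bp with vehicle (n = 4 each), and the libraries overlapped. Over all genes with a peak the Tbr2-positive means were 1057 bp with TSA and 1190 bp with vehicle, and the Tbr2-positive TSA libraries also held fewer peaks in all, 31823 to 40053, against 61487 to 82164 in Tbr2-positive vehicle. The shorter coverage was thus seen over all genes as well. Within each library the members' strongest peaks ranked above those of all genes with a peak by -log10 q: the median percentile was 83.4 to 87.3 in Tbr2-positive TSA, with 76.2 to 80.1 for all genes, and 88.6 to 93.8 in the vehicle libraries of both populations, with 86.1 to 89.999 for all genes. In Tbr2-negative TSA the members had 87.5 to 93.7, with 83.0 to 89.0 for all genes. Lists of such different lengths put no scale on a change between groups. The region shared by Mrpl46 and Mrps11 carried peaks high in each library's own ranking by -log10 q, at percentiles from 96.9 to 99.5 in Tbr2-positive TSA, against 98.0 to 99.6 in Tbr2-positive vehicle, and 95.1 to 99.3 in Tbr2-negative TSA, against 94.0 to 98.9 in Tbr2-negative vehicle. Lower in these rankings stood Mrps10, with percentiles of 54.7 to 67.4 in Tbr2-positive TSA, against 76.5 to 84.4 in Tbr2-positive vehicle. In Tbr2-negative nuclei it had 69.3 to 83.3 with TSA, against 83.7 to 86.8 with vehicle. Mrpl23 had 57.8 to 66.0 in Tbr2-positive TSA, against 76.0 to 82.4 in Tbr2-positive vehicle, and 79.7 to 89.7 in Tbr2-negative TSA, against 79.8 to 90.5 in Tbr2-negative vehicle.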

How the data were processed

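RNA-seq values are raw counts for each Ensembl gene in the deposited files. The submitters' processing notes name SAMtools and mm10; for the aligner, the counter and the annotation, none is named in the sources used here. The kit was TruSeq RNA v2, per the labels, which keeps no strand. H3K9ac peaks were called by the authors in each library with MACS 2.1.0.20140616 at a q threshold of 0.1 with 1 input per group, per the file headers. Each deposited peak has a pileup signal, a fold enrichment ratio, and its p and q as -log10 values; positions and the -log10 q were used. ChIP libraries held 15174087 to 30269814 tags, per the same headers. The 4 input samples were not analysed here.

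Groups came from titles. Counts of all 10 libraries were fitted with edgeR 4.0.16 (R 4.3.3; filterByExpr, TMM, robust quasi-likelihood, 1 mean per group), with Benjamini-Hochberg adjustment over 20078 genes at 0.05; the code was tested on simulated data. Errors of log2 fold changes are SE. DESeq2 1.42.0 was an alternative. Gene ends and starts came from RefSeq tables of GRCm38.p6, matched by symbol. Peak presence was described with no test.

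Same-numbered Tbr2-positive and Tbr2-negative libraries deviated together over all genes (correlations 0.152, 0.121 and 0.132 in vehicle and 0.179 in TSA). The titles' numbers were therefore taken to pair the populations within an agent, and numbers did not pair TSA with vehicle. Over the members alone the same correlations were 0.527, 0.332 and -0.00696 in vehicle and 0.0332 in TSA. There Tbr2-positive vehicle library 3 and Tbr2-negative vehicle library 2, of unlike number, reached 0.495. With 2 libraries per TSA group, both same-numbered TSA pairs give the same value by construction. Named genes were the 8 largest called changes per direction, or, where fewer than 5 were called, also the 5 smallest p, plus the 3 highest and 3 lowest by CPM and Mrpl12, Mrps12, Mrpl58, Mrps18a, Mrps18b, Mrps18c and Mrps36; other genes called in lists with few calls were named after their values were seen. The members and lists were chosen with earlier results of these data known. Alternatives were other size factors, no filter, DESeq2, the compared libraries alone, libraries left out, replicate blocks, and other peak thresholds, windows and overlaps.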

Additional observations from a re-analysis of the deposited data

Results flagged for a closer look

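Among groups of 4 H3K9ac libraries, in which each was searched for a library far from the others by its gap relative to the range, 2 were found in 9 searches. Both are counts in which the other 3 libraries were equal, so any difference at all sets a library apart, and the rate of about 1 in 20 that chance gives for continuous values does not apply. Tbr2-positive TSA library 2 had a gene-end peak at 74 members, while the other libraries of its group had 73 each. Tbr2-negative vehicle library 3 had one at 76 members, while the others of its group had 74 each. The difference is 1 gene in the first case and 2 genes in the second.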

How the results depend on the processing

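None of the named members changed sign with a call under any alternative run, and the number of members called lower was the same in all of them. For TSA against vehicle in Tbr2-positive nuclei, edgeR called 0 members higher. There 2 were higher without the low-count filter (0.784% of all genes higher) and 9 in DESeq2 (2.73%). The median log2 fold change of the members ran from 0.24 to 0.50 without single libraries. In Tbr2-negative nuclei, where 5 were higher, the count was 16 without the filter (2% of all genes higher) and 28 in DESeq2 (5.41%). With a replicate block across all groups it was 0, where 0.0548% of all genes were higher. Vehicle libraries left out gave 0 to 13. The cause of these changes was not tested. In the mean of both populations, where 37 were higher, libraries left out gave 3 to 40, and summing same-numbered libraries, which leaves 5 units, gave 12. Between populations in vehicle, where 3 were higher, a replicate block within agent gave 5 (11.5% of all genes higher). Vehicle libraries left out gave 0 to 4, with 7.5% to 8.43% of all genes higher. The blocks changed no other count by over 1.5 times. The median between populations in TSA ran from -0.13 to 0.13 without single libraries. For gene-end peaks, the TSA difference in Tbr2-positive nuclei of -1.39 percentage points was -0.32 with peaks of -log10 q of at least 10 and 0 around starts, and it ran from -1.71 to -0.96 without single libraries. The population difference in TSA of -1.28 was 0 with -log10 q of at least 5 and 0 around starts, and -1.82 to -0.96 without single libraries. Mrpl53, with as few as 1 count in a library, did not pass the low-count filter and was left out of the main fit. Its start had an H3K9ac peak within 1 kb in every library, and why its counts were so low was not tested.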
